A study of Mus musculus with 3 samples.

Results

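The genes described here encode the proteasome and its dedicated helpers, measured in cultured cells labelled as aortic endothelial that lack the kinase Pim1 and in wild-type cells. The endothelial name is the label's, and several endothelial markers were not detected, as given below. They were chosen by name. A probe was taken where the gene name on the array began with Psm, a letter from a to g and a number, and Psmb8, Psmb9, Psmb10, Psme1 and Psme2 were left out. This gave 62 probes of 41174 on the array, for 39 genes of 19757 named. One of the 39, Psmc3ip, was caught by its name only: it encodes a meiotic recombination factor and no proteasome subunit. The other 38 are proteasome genes.

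The proteasome is the barrel-shaped protease that degrades proteins tagged with ubiquitin. Its 20S core has outer rings of alpha subunits, which form the gate, and inner rings of beta subunits, some of which cut peptide bonds. The 19S regulatory particle sits on the core: its base holds the ATPases that unfold substrates, and its lid holds the enzyme that removes ubiquitin. Cells need these parts in fixed proportions, and the genes are expressed in nearly every cell type. Pim1 protein is itself short-lived and is degraded by the proteasome.

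Both groups were FVB/N mice of 12 weeks, labelled female, 1 group with Pim1 knocked out and 1 wild type. Total RNA was taken 24 hours after seeding and hybridised to 3 two-colour arrays, knockout in Cy5 and wild type in Cy3 on each. Dyes were not swapped, so a dye effect and the genotype cannot be told apart. The labels call the arrays biological replicates but do not say whether the wild-type RNA was 1 pool or several cultures, nor which part of Pim1 was removed. All p-values therefore rest only on spread between these 3 arrays. The test (limma) draws each probe's variance towards a value shared by all tested probes. Every ratio is knockout over wild type, on the log2 scale, and errors are SDs over the 3 arrays.

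As a check of the labels, Pim1 itself read −0.97, −1.16 and −0.99 on arrays 1 to 3 (limma adjusted p = 0.00297). The channels also differed in sex-linked RNA, with Xist at least 168-fold lower in the knockout channel. The Y-linked Eif2s3y and Ddx3y were at least 28.1-fold and 12.1-fold higher there. These values go against the female label of the knockout, and sex and genotype cannot be told apart here. Of 12 endothelial markers, Pecam1, Cdh5, Erg and Tie1 were well above background on no array. For the knockout, 3 of the 12 were above it on every array, against 5 for the wild type. Of 7 fibroblast markers, 7 were above it on every array for the knockout, against 6 for the wild type. The endothelial markers called higher were Eng (mean 2.51) and Egfl7 (1.42). Flt1 (0.27), Esam (−0.17) and Kdr (−0.23) were tested and not called. The summed signal of 6 mesothelial markers, 5 of them called lower, ranged over the arrays from 12.69 to 12.79 (log2 intensity) in the knockout channel and from 16.13 to 16.52 in the wild type. Of 7 fibroblast markers 5 were called higher and 1 lower (median log2 ratio 2.26), while their summed signal ranged from 17.60 to 17.77 and from 17.41 to 17.67, and that of the 5 endothelial markers tested, 2 of them called higher, from 12.92 to 13.36 and from 11.81 to 12.08. Of 4 smooth muscle markers 1, Cnn1, was called lower (sums 14.76 to 15.02 and 14.83 to 15.47), and of 2 leukocyte markers tested 1, Lyz2, was called lower (8.13 to 8.32 and 8.83 to 9.69). The part of sex and of these other cell types in the proteasome ratios was not tested. Across all genes, array 1 stood apart: ratios correlated at r = 0.926 between arrays 2 and 3 but at 0.702 and 0.717 between array 1 and these.

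Expression of the proteasome genes differed little between knockout and wild-type cells. All 39 genes could be tested, and 3 were called at an adjusted p under 0.05 (limma, Benjamini-Hochberg over all probes tested): Psma1 and Psmd9 rose and Psma8 fell. That is 7.69% of them, where 20.1% of 13463 genes tested over the whole array were called, 8.68% as higher and 11.4% as lower. The fitted means of 38 lay within 1.5-fold, against 84.0% of all genes. The exception was Psma8, whose fold is only a lower bound, as given with its values. A fitted mean of 2-fold or more was found for 6.94% of all genes. Their median size of change, without its sign, was 0.16, and that of all genes was 0.21.

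The small differences also varied little between these arrays. The intervals hold spread between arrays only, with variances shared in part over probes, and not the shift with normalisation given further below. The median SD over arrays was 0.15 for the 39 genes and 0.20 for all genes. For 38 of the 39 the 95% interval of the fitted ratio lay inside a 2-fold change, and for 31 inside a 1.5-fold change, against 85.1% and 56.9% of all genes. Among the 36 genes not called, the lowest interval bound was −0.69 (Psmb5) and the highest 0.86 (Psmd13), while an interval reached a median of 0.26 to either side of the mean over the 39. At an unadjusted p under 0.05 there were 10 genes of the 39 (25.6%), against 36.0% of all genes. Psma1, Psma8 and Psmd9 all lost their calls without array 2 and without array 3. Of the 39 genes 0 were then called, against 710 (5.43%) and 617 (4.64%) of all genes. Without array 1, 12 of the 39 were called, 4 higher and 8 lower (30.8%, against 42.3% of all genes). With fewer arrays, the p-values of that fit rest largely on the variance shared over probes.

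**Figure D1:**
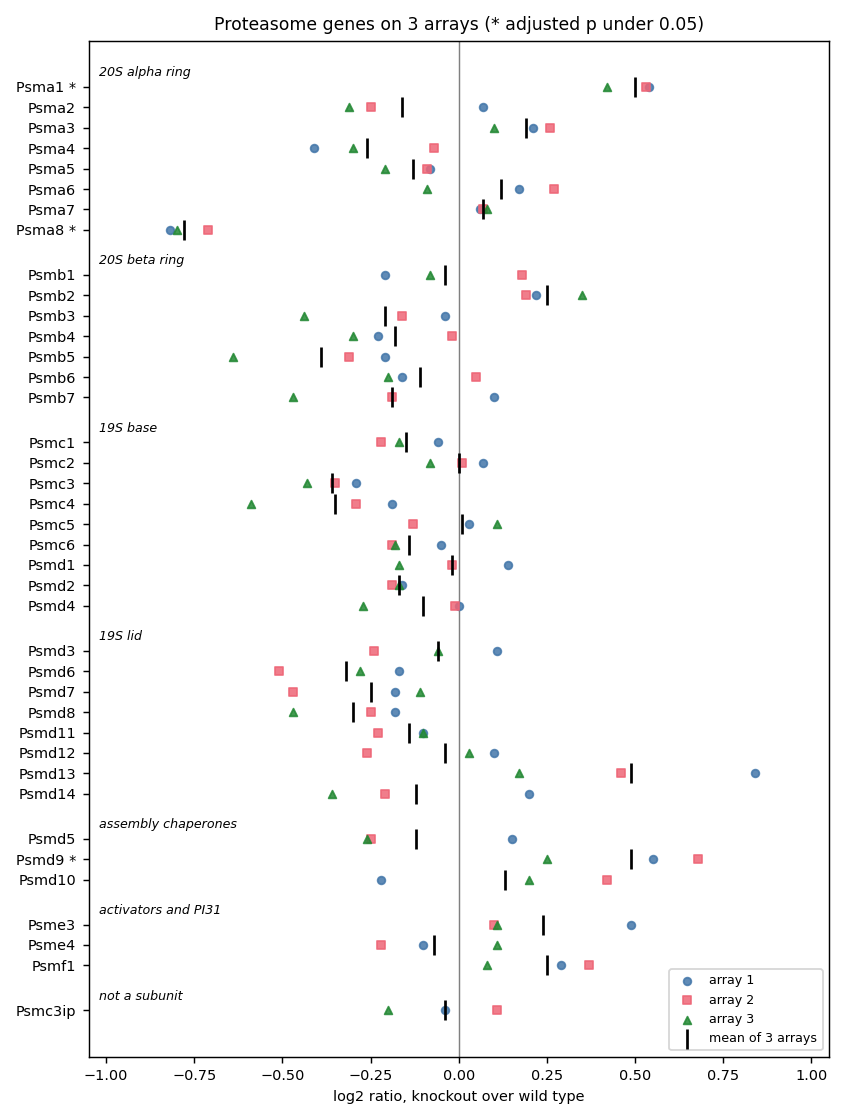
Log2 ratio of knockout over wild type (horizontal axis) of each of the 39 genes (vertical axis, grouped by role) on array 1 (circles), array 2 (squares) and array 3 (triangles), with the mean as a black bar and calls at an adjusted p under 0.05 starred. Most genes lie within 0.5 of 0 on every array, and Psma8 lies near −0.78 on all 3.

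**Figure D2:**
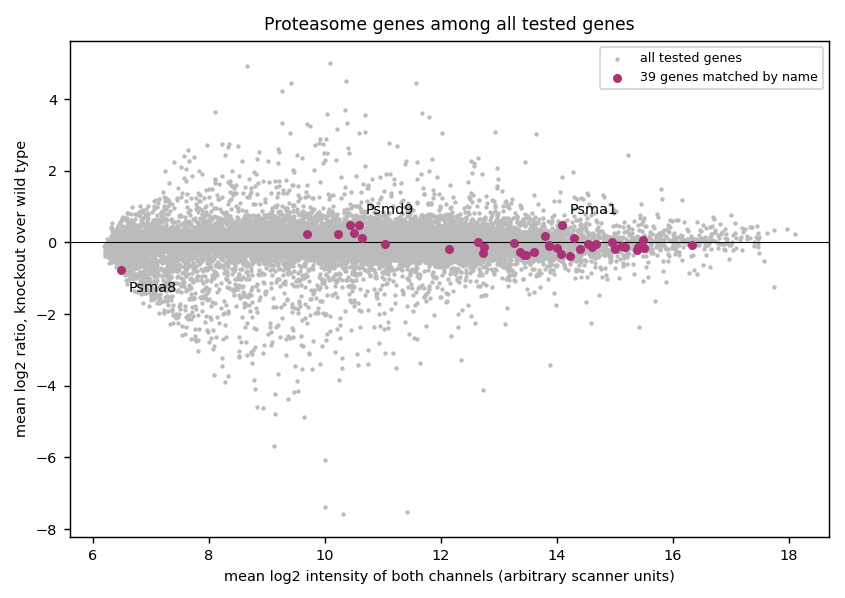
Mean log2 ratio over 3 arrays (vertical axis) against mean log2 intensity of both channels in arbitrary scanner units (horizontal axis) for 13463 tested genes (grey) and the 39 genes matched by name (purple). The purple points lie close to 0, mostly at the bright end, and Psma8 lies alone at the dim end.

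In the alpha ring, 1 of 8 genes rose and 1 fell. Psma1, which encodes a constitutive alpha subunit, rose 1.41-fold: it read 0.54, 0.53 and 0.42 (mean 0.50 ± 0.07, adjusted p = 0.0231). It was higher in the knockout on each array, and its probe lies at 114055896 to 114055955 on the minus strand of chromosome 7 (mm8, the build of the array files). With the scanner software's own log ratio it read 0.53 and missed the threshold (adjusted p = 0.0594). The other constitutive subunits went in no common direction. Psma3 read 0.21, 0.26 and 0.10, Psma6 averaged 0.12 ± 0.18 and Psma7 0.07 ± 0.01. Psma4 read −0.41, −0.07 and −0.30 (adjusted p = 0.166), Psma2 averaged −0.16 ± 0.20 and Psma5 −0.13 ± 0.07. None of these 6 passed the test, and Psma7 had nearly the same value on every array.

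Psma8 encodes the alpha subunit that takes the place of Psma7 in the testis. It read −0.82, −0.71 and −0.80 (mean −0.78 ± 0.06, adjusted p = 0.00623). Its probe, at 14905217 to 14905276 on chromosome 18, was dim: it was well above background on 3 arrays in the wild-type channel and on none in the knockout channel. Its knockout level is therefore only a bound, and it was at least 1.67-fold lower there. The channel means behind this were 6.11 in the knockout and 6.88 in the wild type (log2 intensity), and such bounds are open to dye bias. It passed the filter on dim probes through the wild-type channel alone, so its call is no support for a change in the family. The size depended on how background was handled: the ratio was −1.85 with no offset and −3.80 with the scanner software's log ratio.

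No gene of the beta ring passed the test. With loess normalisation 6 of 7 had mean ratios below 0 (median −0.18), where 52.6% of all genes did. These signs depended on normalisation: with median centring Psmb6 read 0.22 and Psmb7 −0.01. The ring's median was −0.16, −0.02 and −0.30 on arrays 1 to 3. Psmb5 carries the chymotrypsin-like active site, the one that proteasome inhibitors used in the clinic bind first. It read −0.21, −0.31 and −0.64, the lowest mean of the uncalled genes (−0.39 ± 0.23, 95% interval −0.69 to −0.09, adjusted p = 0.0851). It was lower in the knockout on each array, and it passed without array 1 (−0.48, adjusted p = 0.00202) and with array weights (−0.47, adjusted p = 0.021). It read −0.11 with median centring (adjusted p = 0.741), and −0.43 and −0.26 without arrays 2 and 3 (adjusted p = 0.268 and 0.386). Psmb7, with the trypsin-like site, read 0.10, −0.19 and −0.47 (adjusted p = 0.407), so array 1 had the opposite sign to the others. Psmb6, with the caspase-like site, read −0.16, 0.05 and −0.20 (adjusted p = 0.535). Of the subunits without an active site, Psmb3 averaged −0.21 ± 0.21, Psmb4 −0.18 ± 0.15 and Psmb1 −0.04 ± 0.20. Psmb1 lies on chromosome 17, 14 Mb from the Pim1 probe. Psmb2 alone was above 0, at 0.22, 0.19 and 0.35 (0.25 ± 0.09, adjusted p = 0.132).

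The 9 genes of the 19S base ranged from −0.36 to 0.01 and none was called. Among the ATPases that form its ring, Psmc3 came closest, at −0.29, −0.35 and −0.43 (mean −0.36 ± 0.07, adjusted p = 0.0549). The 3 arrays fell within a narrow band below 0, and the gene passed without the filter on dim probes (adjusted p = 0.0386), with array weights (0.0182) and without array 1 (0.00822), while it read −0.12 with median centring. Psmc4 read −0.19, −0.29 and −0.59 (adjusted p = 0.0972). Psmc1 averaged −0.15 ± 0.08 and Psmc6 −0.14 ± 0.08 with its brightest probe, while Psmc2 (0.00 ± 0.08) and Psmc5 (0.01 ± 0.12) stood at 0. The other Psmc6 probe, which was dimmer, read −0.31, −0.34 and −0.33 (mean −0.33 ± 0.02, adjusted p = 0.0633). Psmd2, a scaffold subunit that docks ubiquitin-like domains, read −0.16, −0.19 and −0.17 (adjusted p = 0.253). The other scaffold, Psmd1, averaged −0.02 ± 0.15. Psmd4, a receptor for ubiquitin chains, averaged −0.10 ± 0.15.

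No gene of the lid was called, although its means ran from −0.32 to 0.49. Psmd13, a structural subunit, read 0.84, 0.46 and 0.17 (mean 0.49 ± 0.33, adjusted p = 0.0801). It was the only lid gene with a mean above 0, its highest value came from array 1, and it passed at a lower mean without that array (0.31, adjusted p = 0.0364). The other 7 ran from −0.32 to −0.04. Psmd6 read −0.17, −0.51 and −0.28 (adjusted p = 0.103) and Psmd8 read −0.18, −0.25 and −0.47 (adjusted p = 0.112). Psmd7 averaged −0.25 ± 0.19, Psmd11 −0.14 ± 0.07, Psmd3 −0.06 ± 0.18 and Psmd12 −0.04 ± 0.19. Psmd14, the deubiquitinase that frees substrates of their ubiquitin chains, read 0.20, −0.21 and −0.36 (−0.12 ± 0.29, adjusted p = 0.596). Array 1 thus went the other way for this gene. The lid's median was 0.00, −0.24 and −0.10 on arrays 1 to 3.

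Of 3 genes for chaperones that assemble the base, 1 was called. Psmd9 read 0.55, 0.68 and 0.25, higher in the knockout on each array, a 1.41-fold rise (mean 0.49 ± 0.22, adjusted p = 0.0448). The call rests on 1 of the gene's 2 probes. The called probe spans an intron (chromosome 5, 123500355 to 123502495, mm8). The second one lies 6638 bases downstream (123509133 to 123509192) and read 0.22, 0.07 and 0.03 (mean 0.11 ± 0.10, adjusted p = 0.513). Both are on the plus strand and name the same transcript. With the gene's probes averaged, Psmd9 read 0.30 and was not called (adjusted p = 0.104). The call was also lost under 4 other settings, where adjusted p ran from 0.0502 to 0.0871. The probe sequences are given 5′ to 3′ in lower case, the junction probe in its 60 bases and the second by its first 30:
Psmd9 junction probe: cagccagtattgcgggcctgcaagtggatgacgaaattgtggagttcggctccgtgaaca
Psmd9 downstream probe: tgatttgtgcctagctacgtcttgtgcaaa

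The other base chaperones were not called. Psmd10, or gankyrin, lies on chromosome X and read −0.22, 0.42 and 0.20 (adjusted p = 0.603), with array 1 on the other side of 0. Psmd5 averaged −0.12 ± 0.23. Chaperones of the 20S core carry older names on this array and fell outside the name rule. Of these, Psmg1 averaged −0.03 ± 0.07, Psmg2 0.07 ± 0.16 and Psmg3 0.21 ± 0.25, and none was called.

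The genes for alternative caps were not called either. Psme3 encodes PA28 gamma, a nuclear cap that opens the core without ATP, and read 0.49, 0.10 and 0.11 (0.24 ± 0.22, adjusted p = 0.243). Psme4 encodes PA200, another nuclear cap, and averaged −0.07 ± 0.17 (adjusted p = 0.716). Its 2 other tested probes averaged 0.04 ± 0.09 and −0.26 ± 0.05, neither of them called.

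Psmf1, which encodes PI31, gave opposite signs with different probes. The brightest, designed on NM_144889 at 151421058 to 151421117 of chromosome 2 (mm8, minus strand), read 0.29, 0.37 and 0.08 (0.25 ± 0.15, adjusted p = 0.173). A probe designed on NM_212446 at 151408525 to 151408584 read −0.36, −0.30 and −0.55 and passed as lower (−0.40 ± 0.13, adjusted p = 0.0499). The arrays of these probes do not overlap. A further probe on NM_212446, dimmer and 765 bases downstream, read −0.21, −0.15 and 0.04 (−0.10 ± 0.13, adjusted p = 0.542). The level of Psmf1 therefore has no single value here. All 3 are designed on the gene's strand, 13298 bases from the first to the last, and were not assigned to exons. The first 30 bases of each are given in lower case and 5′ to 3′:
Psmf1 probe on NM_144889: gacctataagaacagtgaggagcttcggtc
Psmf1 called probe on NM_212446: taggtttgggaatgtagataacttggaccc
Psmf1 downstream probe on NM_212446: tttgttattttgcgtgggcagtttttaagt

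Repeat probes mostly agreed closely elsewhere. Of the 62 probes, 58 were tested and 4 called (those of Psma1, Psma8, Psmd9 and Psmf1 above), against 17.1% of all 25080 tested probes. Of the 4 untested probes, 3 named transcripts other than the curated one (for Psmd11, Psmd14 and Psme4) and 1 an Ensembl transcript of Psma2. The Psmd11 one also ran against the strand of its gene. For 15 genes more than 1 probe was tested. Within a gene the mean ratios differed by a median of 0.11, and by under 0.20 in 11 of the 15. Psmc4 gave −0.35 and −0.40, Psmd2 −0.17 and −0.16, and Psmc5 0.01 and 0.00, whereas Psmc6 gave −0.14 and −0.33.

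Signs differed between probes in 6 genes, namely Psmd12, Psmd14, Psmd4, Psmd7, Psme4 and Psmf1. In the first 3 the probes were within 0.16 of each other around 0. In Psmd7, the lid partner of Psmd14, the probes on NM_010817 averaged −0.25 ± 0.19 and −0.07 ± 0.15. A probe on the clone AK012463, upstream of both, read 0.57, 0.02 and 0.23 (0.27 ± 0.27, adjusted p = 0.223). None of the Psmd7 probes passed the test.

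**Figure D3:**
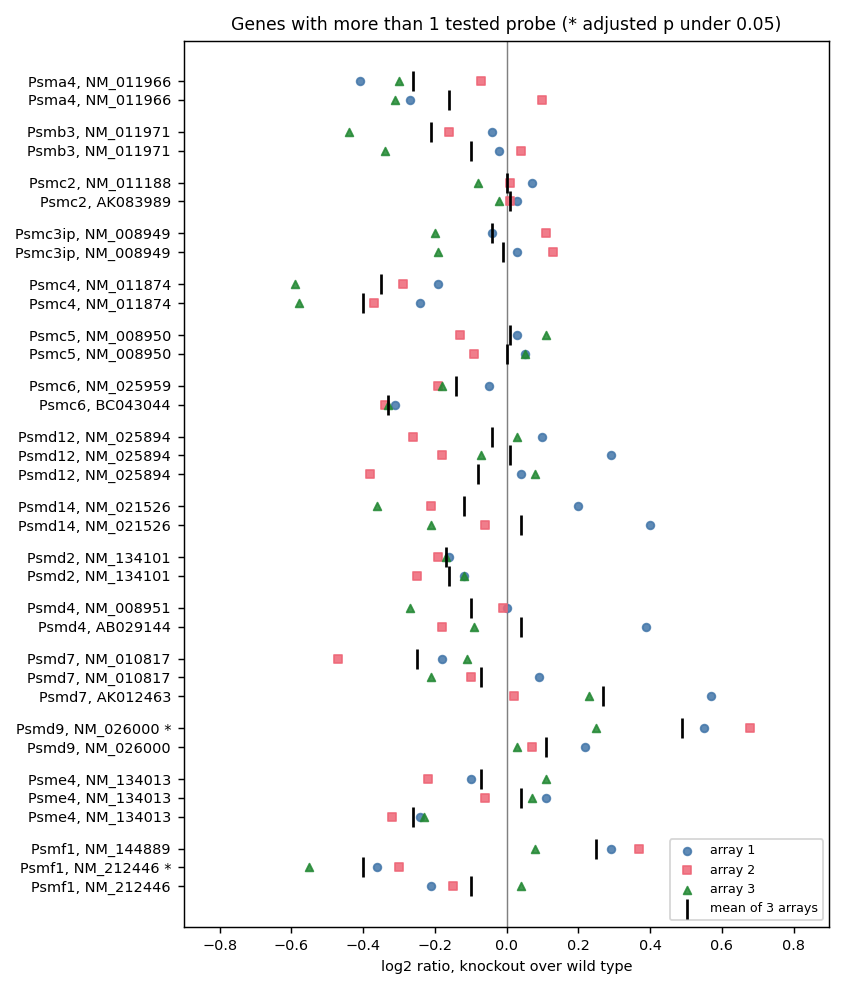
Log2 ratio of knockout over wild type (horizontal axis) for the 34 tested probes of the 15 genes with more than 1 (vertical axis, gene and transcript, brightest probe first), with arrays as circles, squares and triangles, the mean as a black bar and calls starred. Probes of most genes lie close together, and those of Psmf1, Psmd7 and Psmd9 lie apart.

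Which side of 0 the family fell on depended on normalisation. With loess, which removes trends of the ratio with intensity on each array, 27 of the 39 means were below 0 (69.2%, against 52.6% of all genes) and the median was −0.11, with quartiles of −0.19 and 0.04. The median was −0.04, −0.13 and −0.17 on arrays 1 to 3, where that of all genes was −0.04, 0.00 and −0.02. With each array centred on its median instead, the median of the 39 genes was 0.19, and that of all genes 0.08. No direction is therefore given for the family as a whole. The calls of Psma1, Psma8 and Psmd9 were the same under both.

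Signal strength moved with this. The 39 genes had a median brightness at percentile 93.2 of all tested genes, and 26 were among the 1347 brightest genes, of which 16.5% were called. Of the 31 above the 75th percentile, 25 had means below 0 with loess (median −0.13, against −0.02 for all genes that bright). Of the 7 between the 45th and 75th, 6 had means above 0, namely Psmb2, Psmd9, Psmd10, Psmd13, Psme3 and Psmf1, and the median was 0.24 against 0.00. The other was Psmc3ip, which is no proteasome gene. These cut points were not part of the planned comparisons. Over 38 genes without Psma8, brightness and ratio correlated at r = −0.50 (Spearman's rho −0.31), where all genes gave 0.06 by both. These are genes on shared arrays and no independent replicates, and the part of brightness in the ratios was not tested. The same sign on all 3 arrays was found for 24 of the 39 (8 higher, 16 lower), or 61.5%, against 54% of all genes.

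**Figure D4:**
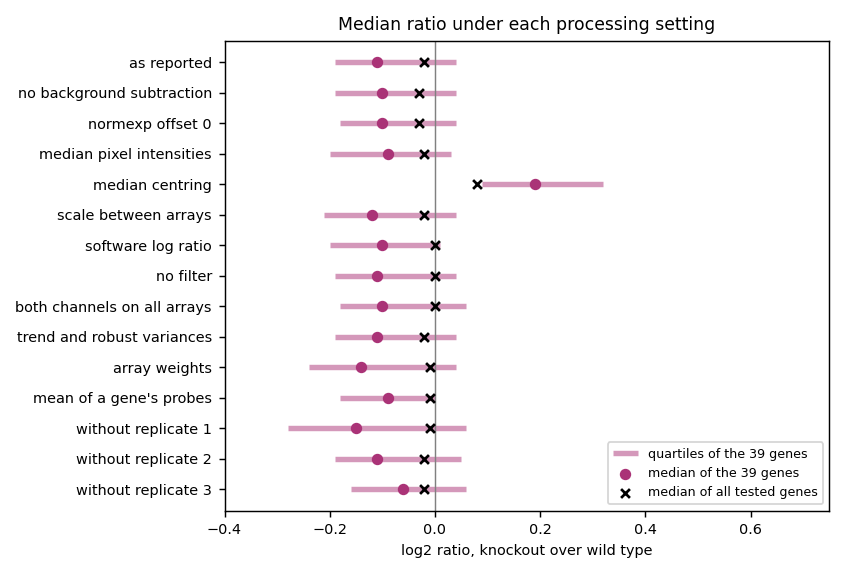
Median log2 ratio of knockout over wild type (horizontal axis) of the 39 genes (purple points, with bars from the lower to the upper quartile) and of all tested genes (crosses) under each processing setting (vertical axis). The median of the 39 lies between −0.15 and −0.06 under every setting other than median centring, where it is 0.19.

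The rest of the ubiquitin-proteasome pathway was described with a list of 41 tested genes, of which 4 rose and 2 fell (14.6%, against 20.1% of all genes; median −0.04). The genes that transcribe the subunits include Nfe2l1, the factor that raises proteasome genes when the proteasome is inhibited, which read 0.01, −0.26 and 0.02 (adjusted p = 0.686). Nfyc, a subunit of the CCAAT-binding factor, rose (0.51, 0.66 and 0.57, mean 0.58 ± 0.08, adjusted p = 0.0153), whereas its partners Nfya and Nfyb averaged −0.04 ± 0.12 and −0.05 ± 0.02. Maff, a small Maf partner of Nfe2l1, read −0.45, −0.65 and −0.59 and fell (adjusted p = 0.0181, and 0.209 with median centring).

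Among factors that deliver substrates, Rad23b rose 1.54-fold (0.92, 0.35 and 0.62, adjusted p = 0.0331, and 0.355 at 0.19 with its probes averaged). Zfand2a, a stress-induced partner of the 19S particle, read −0.77, −0.93 and −0.72 and fell (mean −0.81 ± 0.11, adjusted p = 0.00646, and 0.065 with median centring). Of the partners outside the Psm names, Ecpas, a scaffold that binds the 26S form, rose 1.44-fold (0.62, 0.28 and 0.68, adjusted p = 0.0375). Akirin2, which carries proteasomes into the nucleus, rose 1.30-fold (0.32, 0.38 and 0.42, adjusted p = 0.0465). Ecpas and Akirin2 lost their calls under several settings, both of them with the scanner software's ratio (adjusted p = 0.0833 and 0.151). The core chaperone Pomp averaged −0.07 ± 0.20 and the ubiquitin receptor Adrm1 −0.18 ± 0.25. All 6 calls were lost without array 2 and without array 3.

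The subunits that replace the catalytic ones in the immunoproteasome were not called. Psmb8 and Psmb9, which lie 4.59 and 4.57 Mb from the Pim1 probe on chromosome 17, varied more between arrays than Psmb5 and Psmb6, whose places they take. The part of that position in their ratios was not tested. Psmb9 read 0.21, 2.26 and 1.70 (1.39 ± 1.06, adjusted p = 0.0641) beside Psmb6 at −0.16, 0.05 and −0.20. Psmb8 read −0.38, 1.41 and 0.82 (adjusted p = 0.269) and Psmb10 −0.16, 0.33 and 0.24 (adjusted p = 0.536). The log2 ratio of Psmb9 minus that of Psmb6 was 0.37, 2.21 and 1.90, that of Psmb8 minus Psmb5 −0.17, 1.72 and 1.46, and that of Psmb10 minus Psmb7 −0.26, 0.52 and 0.71. These differences were not tested. Array 1 was the lowest for all 3 pairs. None of Psmb8, Psmb9 and Psmb10, nor Psme1 (−0.07 ± 0.53) and Psme2 (0.07 ± 0.38) of the PA28 cap, passed the test. Without array 1 Psmb9 (1.98, adjusted p = 1.8e-13), Psmb8 (1.12, adjusted p = 3.83e-08) and Psme2 (0.29, adjusted p = 0.0481) did. That fit had fewer arrays behind each test, so such small p-values rest largely on the variance shared over probes. It called 42.3% of all genes, against 20.1% with all arrays. Psmb9 also passed under 5 settings that kept all arrays: array weights (adjusted p = 0.00384), an offset of 0 (0.0396), median centring (0.0423), the scanner software's ratio (0.0481) and no background subtraction (0.0497). Psmb8 passed with array weights (0.0287).

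**Figure D5:**
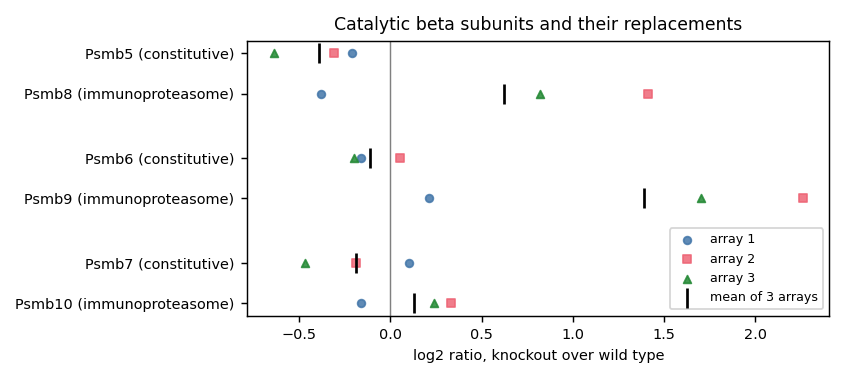
Log2 ratio of knockout over wild type (horizontal axis) of the catalytic subunits Psmb5, Psmb6 and Psmb7, each above the subunit that replaces it in the immunoproteasome (vertical axis), on array 1 (circles), array 2 (squares) and array 3 (triangles), with the mean as a black bar. Psmb8 and Psmb9 lie well above 0 on arrays 2 and 3 and near it on array 1, whereas the constitutive subunits stay within 0.64 of 0.

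The promoters of these genes were searched for shared letters that the choice by name did not use. RefSeq promoters of 300 bases (250 before the start and 50 after it, GRCm38.p6) were found for 32 of the 39 genes. Searched were 6 motifs on both strands, with N for any base, and they may overlap each other. CCGGAAG, the core bound by ETS factors, was in 13 of 32 (40.6%), against 9.93% of the promoters of all genes and 18.9% of those of the tested genes. The palindrome of nuclear respiratory factor was in 6 (18.8%), against 5.19% and 10.7%. TGACNNNGC, the antioxidant response element bound by Nfe2l1 with a small Maf, was also in 6 (18.8%), against 14.0% and 16.6%. CCAAT was in 13 (40.6%, against 41.1% and 42.8%), GGGCGG in 19 (59.4%, against 38.2% and 66.9%) and TATAAA in 3 (9.4%, against 15.7% and 9.81%). Psmc3ip, which is no proteasome gene, is counted among the 32 and holds CCGGAAG and CCAAT. Such a match is a description of the letters and not a measured site.

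Stretches of 60 bases from the part of the promoter before the start are given for the called genes with a promoter entry and for a few subunits from different parts of the complex. They run 5′ to 3′ along the gene, with the motif in capitals (a motif of the opposite strand appears as its reverse complement). TGACNNNGC stands in capitals for Psmb5, Psmb6 and Psmd9, CCAAT (on both strands) for Psma1, and CCGGAAG for Psmc1, Psmd4 and Psme4:
Psma1, chr7:114276183-114276242, minus strand: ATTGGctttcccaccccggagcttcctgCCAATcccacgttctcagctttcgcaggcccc
Psmb5, chr14:54618009-54618068, minus strand: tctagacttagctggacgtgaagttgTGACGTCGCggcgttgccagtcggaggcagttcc
Psmb6, chr11:70525297-70525356, plus strand: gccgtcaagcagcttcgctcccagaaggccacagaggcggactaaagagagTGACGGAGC
Psmd9, chr5:123228130-123228189, plus strand: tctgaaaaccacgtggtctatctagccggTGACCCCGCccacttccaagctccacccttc
Psmc1, chr12:100110142-100110201, plus strand: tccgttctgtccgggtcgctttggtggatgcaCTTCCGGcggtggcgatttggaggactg
Psmd4, chr3:95042707-95042766, minus strand: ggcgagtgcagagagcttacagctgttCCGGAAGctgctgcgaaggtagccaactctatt
Psme4, chr11:30771695-30771754, plus strand: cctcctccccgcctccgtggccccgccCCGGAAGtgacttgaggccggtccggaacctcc

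Mean ratios (with loess) of the genes that hold each motif are given as a description, with no test. Of all tested genes, 52.6% had means below 0 and 20.1% were called. Of the 6 with TGACNNNGC, 5 had means below 0 and 1, Psmd9, was called as higher (range −0.39 to 0.49). Of the 13 with CCGGAAG, 9 were below 0 and 0 were called (−0.32 to 0.49). Of the 13 with CCAAT, 6 were below 0 and 1, Psma1, was called as higher (−0.21 to 0.50). GGGCGG was in 19, with 14 below 0 and Psma1 and Psmd9 called (−0.35 to 0.50). The 3 with TATAAA ran from −0.32 to −0.02 and the 6 with the palindrome from −0.35 to 0.19, none of them called.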

How the data were processed

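The deposited array files hold mean pixel intensity and local background intensity for 45018 spots in each channel, and the submitters' processing notes name Agilent Feature Extraction (9.5.3.1). The deposited log10 ratio of Cy5 over Cy3 is the software's own, and the log10 values of the deposited value table were identical to it (largest difference 0).

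Background was corrected with normexp (offset 50), log2 ratios were normalised by loess within each array, outlier-flagged spots (121, 140 and 136) were dropped, and repeat spots were averaged. Testing required a probe to be well above background, in either channel, on 2 or more arrays. limma 3.58.1 (R 4.3.3) tested the mean ratio against 0, with Benjamini-Hochberg adjustment over 25080 probes. Each probe's variance was moderated towards a value shared by all tested probes (3.46 prior degrees of freedom). Genes took their brightest tested probe, and 253 probes that run antisense to their gene were not used for it. The offset pulls dim ratios towards 0. The pipeline was tested on simulated data. Ratios carry no depth, and the number of arrays limits the precision. All 3 arrays share 1 slide and scan date.

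Genes and lists were chosen with earlier results of these data known. Named were the called genes, the catalytic subunits, the 3 highest and 3 lowest means, the 3 lowest adjusted p above the threshold, genes whose probes disagreed in sign or call, the immunoproteasome genes and called pathway genes; the rest are given by value. Alternatives were other background, pixel, normalisation, filter, variance and probe choices, and leaving out each array.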

Additional observations from a re-analysis of the deposited data

How the results depend on the processing

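No paired analysis was possible because each array already sets knockout against wild type and there is 1 group of ratios. The software's log ratio called 1 of the 39 genes (2.56%, against 18.7% of all genes) and 3 pathway genes. That 1 was in the alpha ring, with 0 among the assembly chaperones. Array weights called 8 (20.5%, against 32.1% of all genes, or 4323) and 11 pathway genes. Among the 8, the beta ring had 1, the base 2 and the lid 2. The base had 1 call with no filter, the alpha ring 1 with probes above background in both channels, and pathway genes 3 with median centring. These settings called 12.6%, 19.5% and 13.9% of all genes. Assembly chaperones had 0 with an offset of 0, no filter, trend and robust variances or a gene's mean probe. Of all genes, those settings called 19.8%, 12.6%, 21.3% and 18.7%. The cause was not tested. The median of the 39 genes was 0.19 with median centring, which called 55.6% of its genes as higher, against 43.1% with loess. Leaving out each array gave 0 to 12 calls among the 39 genes and 617 to 5570 in all (4.64% to 42.3% of genes). It gave 0 to 2 in the alpha ring, base and assembly chaperones, and 0 to 3 in the beta ring and lid. Pathway genes had 0 to 17, and fewer arrays stood behind each of those tests. At an unadjusted p under 0.05, all arrays gave 10 of the 39. Over 14 alternatives Psma1 was called in 11 (0.47 to 0.77) and Psmd9 in 7 (0.30 to 0.62). Psma8 was called in 11 of 13 (−3.80 to −0.75). It dropped out of testing where both channels had to be above background, and its size followed background handling. No named gene that was called reversed.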
